A study of Mus musculus with 3 samples.

Results

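The genes of 5 nuclear receptors, grouped as receptor partners and regulators, were examined for binding of NUR77: Rxra, Pparg, Ppard, Nr1h3 and Nr3c1. Members were the chromatin immunoprecipitation sequencing (ChIP-seq) peaks whose centre lay in a fixed window around each gene, in coordinates of mouse build mm9. The windows were chr2:27450000-27700000 for Rxra, chr6:115250000-115500000 for Pparg, chr17:28320000-28480000 for Ppard, chr2:90990000-91080000 for Nr1h3 and chr18:39500000-39750000 for Nr3c1, 1000 kb in all. They held 47 of the 52946 peaks of the series. By replicate these were 6 of the 6777 peaks of replicate 1, 33 of the 37307 of replicate 2 and 8 of the 8862 of replicate 3.

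The cells were RAW264.7, an established mouse macrophage line, made stable for the construct pINDUCER20b-HA-NUR77, from which doxycycline induces NUR77 with an HA epitope tag. All 3 samples form a single group: each came from 6 dishes given 1 µg/mL doxycycline for 18 hours, was cross-linked with a protein cross-linker and formaldehyde, and was precipitated with an antibody to HA. The tagged protein was therefore expressed from an induced construct, and its level against the cells' own NUR77 was not measured here. Only tagged NUR77 was precipitated. No sample without doxycycline or without the tag was analysed here, so what is compared is the windows with the rest of the genome and the replicates with each other. The labels name the cell line, and a peak list offers no marker expression to check it against.

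NUR77 (gene Nr4a1) is an orphan receptor of the NR4A family that binds DNA as a monomer at an extended hexamer, as a dimer at paired elements, or together with a retinoid X receptor. RXRα, encoded by Rxra, is the common heterodimer partner of many nuclear receptors, among them PPARγ, PPARδ and LXRα, the products of Pparg, Ppard and Nr1h3. These receptors respond to fatty acids and oxysterols and control lipid handling and inflammatory genes in macrophages. The glucocorticoid receptor, encoded by Nr3c1, is a steroid receptor with anti-inflammatory action, and mutual antagonism between it and NUR77 has been described.

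Taken as a whole, the 5 windows held HA-NUR77 peaks at a higher density than the genome, but the windows differed greatly among themselves. Pparg had 5 regions with peaks of at least 2 replicates, Ppard and Nr3c1 had 2 each, Nr1h3 had 1 and Rxra had 0. Without replicate 2 these counts were 3 for Pparg, 1 for Ppard and 0 for the others. Without replicate 3 they were 3 for Pparg, 2 for Ppard, 1 for Nr3c1 and 0 for the others, and without replicate 1 they were 5 for Pparg and 1 each for Ppard, Nr1h3 and Nr3c1. Of the 4 regions with peaks of all 3 replicates, 3 lay in the Pparg window and 1 in the Ppard window. A region here is a set of peaks of the 3 lists that overlap by at least 1 bp. The position of a region relative to exons or start sites is not given, because no mm9 annotation was used here. The windows are wider than the genes alone may be, and peaks in them could lie nearer to neighbours.

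**Figure D1:**
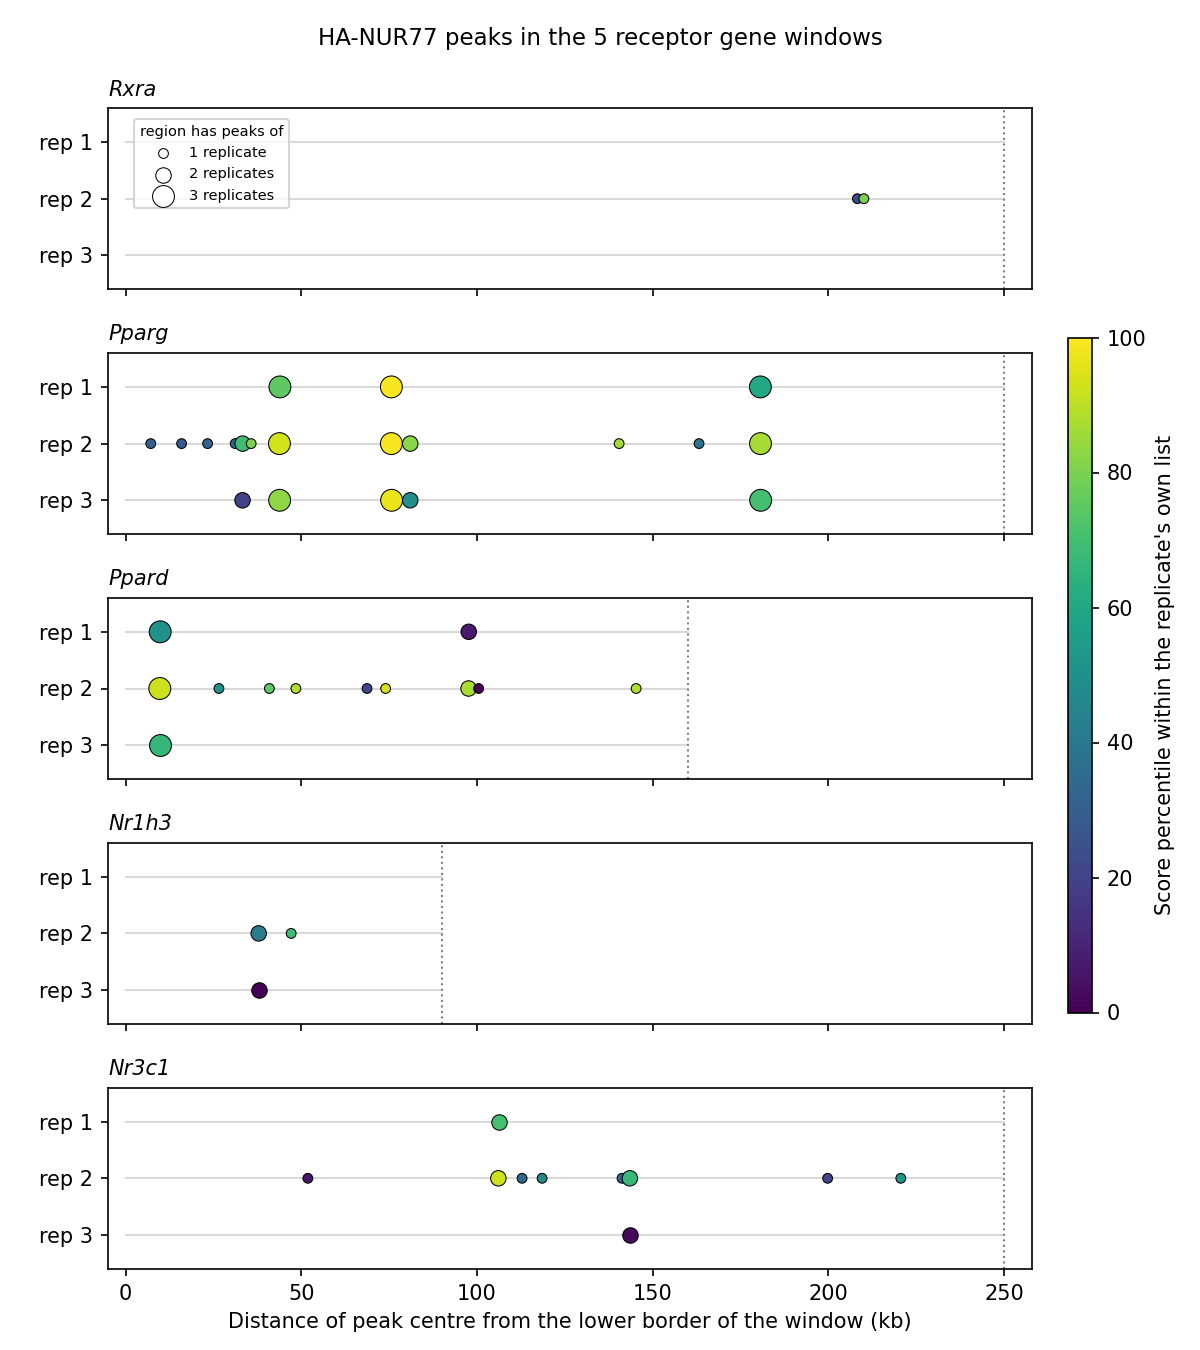
Peaks of each replicate (rows) by the distance of their centre from the lower border of each window in kb. Point size gives the number of replicates with a peak in that region and is not to scale with peak width, colour gives the score percentile within the replicate's own list, and the dotted line is the upper border. The Pparg window holds 3 regions with peaks in all 3 rows, Ppard holds 1, and Rxra holds peaks of replicate 2 only.

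The peaks called in the windows made up nearly the same share of each list. They were 0.0885% of the replicate 1 list, 0.0885% of the replicate 2 list and 0.0903% of the replicate 3 list. Per Mb, the windows held 6, 33 and 8 peaks of replicates 1, 2 and 3, against 2.55, 14.1 and 3.34 per Mb of nuclear genome in the same lists. The density was thus 2.35-fold, 2.35-fold and 2.40-fold that of the list, a mean of 2.37 ± 0.027 (SD, n = 3), and above 1 in 3 of 3 replicates. The SD is much smaller than the counting error of so few peaks. The 95% exact Poisson intervals, which cover counting error only, were 0.863 to 5.12, 1.62 to 3.30 and 1.03 to 4.72 for replicates 1, 2 and 3, so that of replicate 1 includes 1. Without the Pparg window, an alternative chosen after seeing the data, the density was 1.57-fold, 1.99-fold and 1.20-fold, a mean of 1.59 ± 0.397 (SD, n = 3). These rest on 3, 21 and 3 peaks of replicates 1, 2 and 3, and their counting intervals were not computed. The genome average includes gene-poor and unmappable sequence, while the windows were drawn around genes, and the part of this in the ratios was not tested.

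**Figure D2:**
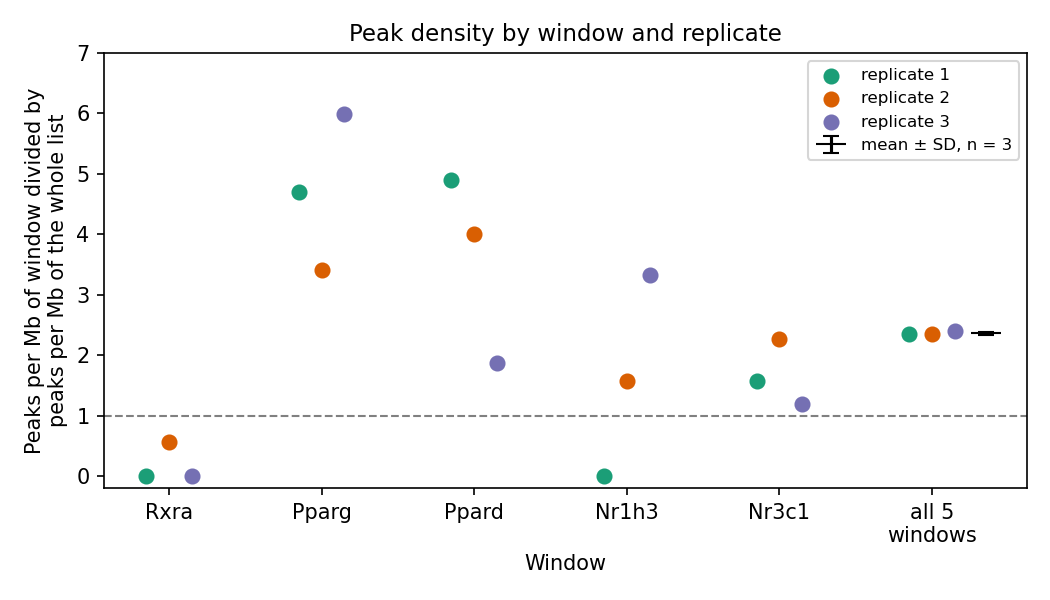
Peaks per Mb of each window divided by peaks per Mb of the whole list, for each replicate (points), with the mean and SD over the 3 replicates for the 5 windows together. Pparg, Ppard and Nr3c1 lie above the dashed line at 1 in all 3 replicates, Rxra lies below it in all 3, and the 5 windows together lie between 2.35 and 2.40.

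Replicates agreed in the windows about as often as over the whole lists. Of the 33 regions in the windows, 10 (30.3%, 95% Wilson interval 17.4 to 47.3) had peaks of at least 2 replicates, against 25.4% of all 38463 regions. All 3 replicates were present in 4 (12.1%, 4.82 to 27.3), against 12.3% of all regions. Both shares are near the background, and the intervals, which cover counting error only, include it. Every replicate 1 peak in the windows (6 of 6) overlapped another list, against 94.3% of the whole list, and so did every replicate 3 peak (8 of 8), against 93.2%. Of the replicate 2 peaks, 10 of 33 did, against 25.7%. Both other lists were overlapped by 4 of the 6 peaks of replicate 1 (69.1% of its list), 4 of the 33 of replicate 2 (12.7%) and 4 of the 8 of replicate 3 (52.8%). Every one of the 33 regions, shared or not, included a replicate 2 peak, and 23 of them held nothing else, against 97% and 72.1% of all regions, so these counts are near the background. Without replicate 2 the shared regions numbered 4, and without replicate 3 they numbered 6, with relative densities of 2.19 and 2.56. The shared regions per Mb, 10 against 3.67 in the nuclear genome, gave a relative density of 2.72, with an interval from counting error of 1.48 to 5.01.

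Scores were used only as ranks within their own list, as the authors' files do not state their scale. A score percentile of 100 is the highest in the list. The median percentile of the window peaks of replicates 1, 2 and 3 was 65.2, 66.8 and 58.0, a mean of 63.3 ± 4.71 (SD, n = 3), against 50 for a whole list by construction. The best-scored 10% of each list held 1 of the 6 window peaks of replicate 1, 5 of the 33 of replicate 2 and 1 of the 8 of replicate 3, against 10% of each list by construction. In replicate 1 the window peaks scored from 24.9 to 348, with a median of 59.7. Those of replicate 2 scored 21.8 to 959, with a median of 125, and those of replicate 3 scored 22.5 to 267, with a median of 60.5. The windows thus span nearly the bottom of each list to its upper ranks, and the top in all 3 replicates is the same Pparg region.

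Rxra, the gene of the shared heterodimer partner, had the fewest peaks for the width of its window. Replicates 1 and 3 had 0 peaks in the 250 kb, and replicate 2 had 2, which is 0.569 times the density of its list. The counting intervals of these densities reached 5.78-fold, 2.06-fold and 4.42-fold for replicates 1, 2 and 3, so a density at or above the genome average was not distinguishable from these counts. The better-scored peak lay at chr2:27659817-27660466, with a score of 203 (percentile 80.2), and the other, at chr2:27658067-27658516, scored 39.79 (percentile 22.1). Among genome tiles of 250 kb laid end to end, 63.9% had no region of at least 2 replicates, so an empty tile is the most common case. The tiles include gene-poor sequence, while the Rxra window was drawn around a gene, and its place among gene loci was not tested. The nearest such region outside the window was at chr2:27357099-27357446, 92.7 kb below its lower border, with peaks of all 3 replicates. Above the window the next was 740 kb away, also with all 3.

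The DNA letters under the peaks are not shown, since no mm9 sequence was used here. RefSeq promoter windows of GRCm38, each from 250 bases before to 50 after a gene start, were searched on both strands for the NR4A monomer element AAAGGTCA, for the hexamer AGGTCA that it contains, and for that hexamer repeated with a spacer of 1, 4 or 5 bases. Of the 8 windows of 4 genes (2 for Rxra, 3 for Pparg, 1 for Ppard, 2 for Nr1h3), 1 held AAAGGTCA, against 1.51% of all 32851 promoter windows, and 3 held AGGTCA, against 16.3%. None of the 8 held a repeat with a spacer of 1 (0.0396% of all), 4 (0.0152%) or 5 (0.00913%). The 3 sequences with a match are shown, with matches in capitals, to set the single monomer element, at Rxra, beside the bare hexamers at Pparg. In the Rxra sequence, at chr2:27709042-27709341 (GRCm38, plus strand), AAAGGTCA begins 50 bases before the start, and its last 6 bases are the hexamer, which also occurs on the other strand from 87 bases before the start. In the Pparg sequences, at chr6:115360894-115361193 and chr6:115362099-115362398 (GRCm38, plus strand), the hexamer begins 28 and 9 bases before the start.
Rxra: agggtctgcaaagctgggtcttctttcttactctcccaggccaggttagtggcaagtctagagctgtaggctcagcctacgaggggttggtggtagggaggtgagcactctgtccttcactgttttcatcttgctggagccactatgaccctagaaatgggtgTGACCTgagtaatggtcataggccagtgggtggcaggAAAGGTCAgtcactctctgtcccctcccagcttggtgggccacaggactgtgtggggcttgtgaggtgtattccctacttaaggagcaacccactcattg
Pparg, first start: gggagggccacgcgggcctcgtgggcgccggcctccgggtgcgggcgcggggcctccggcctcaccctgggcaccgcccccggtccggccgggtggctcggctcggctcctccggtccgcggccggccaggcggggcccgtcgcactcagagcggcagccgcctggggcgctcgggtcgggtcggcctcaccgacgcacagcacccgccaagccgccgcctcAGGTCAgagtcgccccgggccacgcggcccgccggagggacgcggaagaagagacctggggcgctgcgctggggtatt
Pparg, second start: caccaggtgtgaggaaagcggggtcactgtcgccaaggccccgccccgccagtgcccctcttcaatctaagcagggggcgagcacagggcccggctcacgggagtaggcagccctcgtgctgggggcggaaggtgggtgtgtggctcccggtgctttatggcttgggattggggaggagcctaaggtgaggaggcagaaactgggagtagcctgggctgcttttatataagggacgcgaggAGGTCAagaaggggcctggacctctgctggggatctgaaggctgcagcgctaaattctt

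These matches describe the letters only. The build differs from that of the peaks, so whether any peak covers these windows was not determined. For Rxra, the gene with the monomer element at a start, the mm9 window held no region of at least 2 replicates. Neither did 63.9% of 250 kb tiles, gene-poor sequence included. Whether that start lies in the mm9 window was not determined, so the element and the empty window cannot be related.

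Pparg encodes PPARγ, a lipid-activated receptor of macrophages and fat cells, and its window held the best-scored region and the most shared regions of the 5. It held 3, 12 and 5 peaks of replicates 1, 2 and 3, which is 4.70-fold, 3.42-fold and 5.99-fold the density of the lists. The counting intervals were 0.970 to 13.7, 1.77 to 5.97 and 1.95 to 13.98, so that of replicate 1 includes 1. The peaks formed 12 regions, 5 with at least 2 replicates and 3 with all 3. Of the 10610 genome tiles of 250 kb, 541 (5.10%) had 5 or more regions of at least 2 replicates, with a mean of 0.918 per tile. For regions of all 3 replicates, 4.73% of tiles had 3 or more. The Pparg window is thus among the denser stretches of the genome, and many others are as dense. The tiles include gene-poor sequence, while the window was drawn around a gene, and its place among gene loci was not tested.

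**Figure D3:**
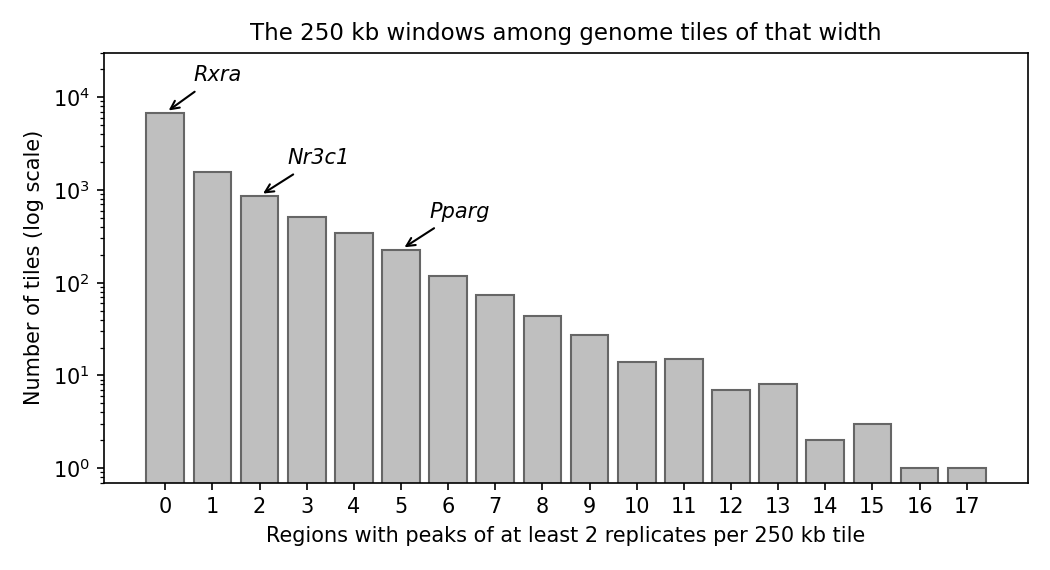
Number of 250 kb genome tiles (log scale) by the number of regions with peaks of at least 2 replicates that they hold, with arrows at the counts of the windows of the same width. Rxra falls in the bar at 0, Nr3c1 in the bar at 2 and Pparg in the bar at 5, a count that 5.10% of tiles reach or pass.

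The leading region was chr6:115325276-115326025, 75.7 kb from the lower border of the Pparg window. Replicates 1, 2 and 3 gave it scores of 348, 959 and 267, which ranked 68 of 6777, 335 of 37307 and 311 of 8862. The percentiles were 99.0, 99.1 and 96.5, a mean of 98.2 ± 1.48 (SD, n = 3), the highest and the least variable of the 10 shared regions. The replicate 2 score is shared by 549 peaks, with 60 above it, so rank 335 is the middle of a tie. The peaks were 600, 750 and 550 bp wide, at width percentiles of 98.8, 99.0 and 94.7, and their centres lay 11 to 70 bp apart. This region was thus near the top of all 3 lists by score and by width.

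The other 2 Pparg regions with all 3 replicates ranked lower and varied more. The region at chr6:115293426-115294175 scored 74.2, 453 and 112, at percentiles of 75.2, 93.3 and 82.8 (mean 83.8 ± 9.10, SD, n = 3). The region at chr6:115430376-115431075 scored 53.6, 285 and 78.0, at percentiles of 60.0, 86.8 and 70.0 (mean 72.3 ± 13.5, SD, n = 3). In both regions the percentile was lowest in replicate 1 and highest in replicate 2. The ranks in replicates 1, 2 and 3 were 1683, 2499 and 1522 for the former, and 2708.5, 4916 and 2658 for the latter. By rank, replicate 2 was thus placed lowest and replicate 3 highest in both, as the lists differ in length. The highest percentile of these 2 regions, 93.3, is below the lowest of the leading region, 96.5.

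Pparg regions with exactly 2 replicates were found in replicates 2 and 3 only. The better-ranked was chr6:115330676-115331375, 5.38 kb from the leading region, with a score of 229 in replicate 2 (percentile 82.6) and 49.9 in replicate 3 (percentile 49.5). The centres of those 2 peaks were 5 bp apart, the closest of any pair in the windows. The other, at chr6:115283026-115283625, had percentiles of 69.1 and 19.8, with a replicate 3 rank of 7111 of 8862. Replicate 2 alone added 7 peaks, with the best at chr6:115390126-115390825 (score 273, percentile 86.1). From the first to the last of the 5 shared regions, the neighbours were 10.5, 31.9, 5.38 and 99.7 kb apart. The next shared region outside, at chr6:115238076-115238775 with all 3 replicates, was 11.6 kb below the lower border. Which gene any of these regions belongs to was not determined.

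Ppard encodes PPARδ, the fatty acid receptor related to PPARγ, and its 160 kb window held 12 peaks. Of these, 2, 9 and 1 were of replicates 1, 2 and 3, or 4.90-fold, 4.00-fold and 1.87-fold the density of the lists. Replicate 2 makes up 70.5% of all peaks of the series, near its 9 of 12 here. The counts of replicates 1 and 3 are so small that their intervals, 0.593 to 17.7 and 0.0474 to 10.4, include 1, while that of replicate 2, 1.83 to 7.60, does not. Among 160 kb tiles, 14.3% had 2 or more regions of at least 2 replicates.

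The Ppard region with all 3 replicates was chr17:28329449-28330048, 9.75 kb inside the lower border. It scored 45.6, 415 and 71.0, at percentiles of 51.0, 92.3 and 66.5 (mean 69.9 ± 20.9, SD, n = 3). It thus stood in the middle of the replicate 1 list and near the top of the replicate 2 list. Its ranks were close, at 3323.5 of 6777, 2870 of 37307 and 2971 of 8862. The lists differ in length, so close ranks give different percentiles here. The region at chr17:28417299-28417948 had a replicate 2 score of 285 (percentile 86.9) and a replicate 1 score of 24.9 (percentile 7.33), where the peak was 200 bp wide against 650 bp in replicate 2. The best replicate 2 peak of the window, at chr17:28393699-28394348, scored 458 (percentile 93.4) and overlapped no other list. It outscored the region found in all 3 replicates. Over all windows it was the 1 peak of 23 unshared replicate 2 peaks in the best-scored 10% of that list, against 1.85% of all its unshared peaks. A further shared region lay 5.70 kb below the lower border, at chr17:28314099-28314498, with 2 replicates.

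Nr1h3 encodes LXRα, the oxysterol receptor that drives cholesterol efflux genes, and in its 90 kb window the shared region ranked low while an unshared peak ranked higher. Replicates 1, 2 and 3 had 0, 2 and 1 peaks there. The shared region was chr2:91027667-91028116, with a score of 63.2 in replicate 2 (percentile 41.7) and 22.5 in replicate 3 (percentile 0.694, rank 8801 of 8862). It had the lowest mean percentile of the 10 shared regions, 21.2, and its replicate 3 score was just above 22.2, the lowest in that list. The replicate 2 peak at chr2:91036867-91037416 scored higher, 133 (percentile 68.8), and was not shared. Of 90 kb tiles, 19.5% had 1 or more shared regions. A region with all 3 replicates lay outside, at chr2:90949767-90950466, 39.9 kb below the lower border.

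Nr3c1 encodes the glucocorticoid receptor, and its 250 kb window had a pair of shared regions, each with a different partner of replicate 2. Replicates 1, 2 and 3 had 1, 8 and 1 peaks there, or 1.57-fold, 2.28-fold and 1.20-fold the density of the lists, with intervals that all include 1. Replicates 1 and 3 shared no region here. Of 250 kb tiles, 75.2% had no region of all 3 replicates, but these include the 63.9% with no shared region at all. How often this holds among tiles with 2 or more shared regions was not determined. Of all 9755 shared regions, 4723 had peaks of all 3 replicates and 169 had peaks of replicates 1 and 3 alone. A share of 21.3% of 250 kb tiles had 2 or more shared regions.

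The better-ranked Nr3c1 region was chr18:39605485-39606734, with a score of 65.8 in replicate 1 (percentile 70.4) and 422 in replicate 2 (percentile 92.5). The replicate 2 peak was 1250 bp wide, the widest in the windows and at the 99.96 percentile of width in its list. The replicate 1 peak, 250 bp wide, lay inside it at chr18:39606280-39606529, with its centre 295 bp from the centre of the wide peak. This was the largest offset of the 18 pairs of centres in the windows, whose median was 58 bp. Over the shared regions of the genome the median was 43 bp, taken only from lists with a single peak in the region. The other region, at chr18:39643276-39643784, had a percentile of 66.8 in replicate 2 and 2.36 in replicate 3. Of the 6 peaks of replicate 2 alone, the best, at chr18:39720385-39720934, scored 83.9 (percentile 52.7). The nearest shared regions outside were 289 kb below and 148 kb above the window.

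**Figure D4:**
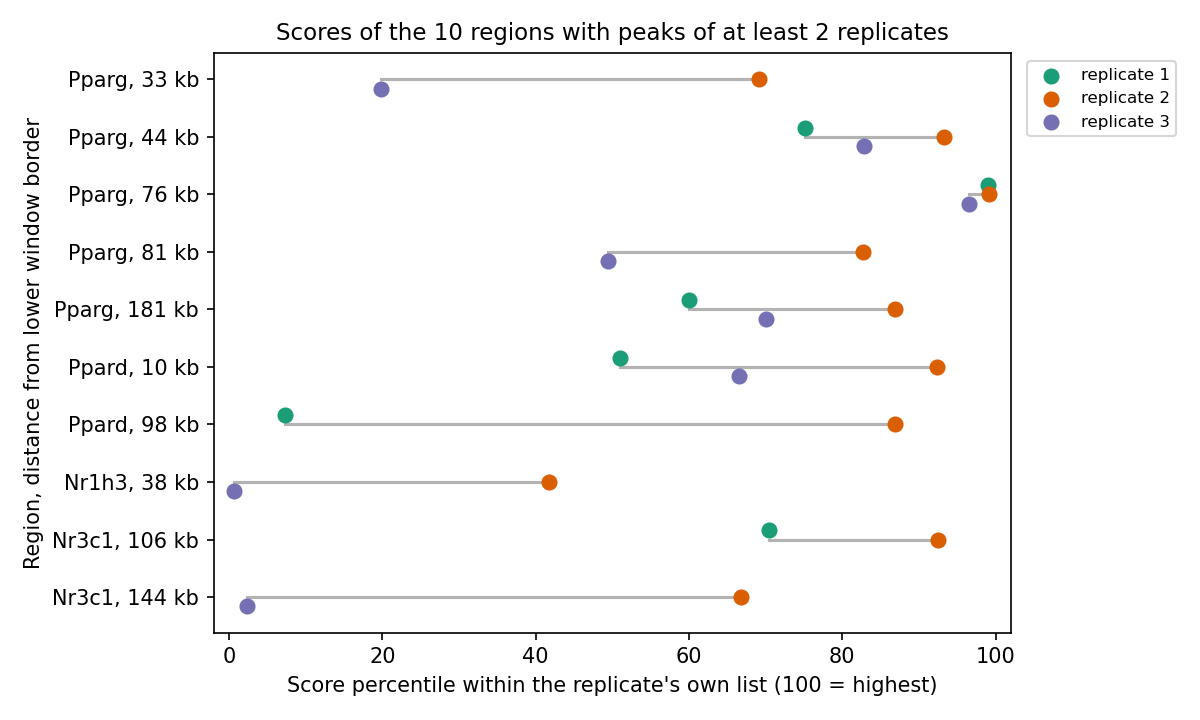
Score percentile within each replicate's own list for the 10 regions with peaks of at least 2 replicates, named by gene and by distance from the lower window border. Grey lines span the replicates with a peak. The Pparg region at 76 kb lies between 96.5 and 99.1, while the others spread more widely and have replicate 2 at the right end.

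Across the 10 shared regions, the replicate 2 peak had the highest percentile each time, against 93.2% of all shared regions with a replicate 2 peak. Every one of the 6 replicate 1 peaks lay within its borders, against 88.7% of such regions, and 7 of the 8 replicate 3 peaks did, against 86.3%. These counts too are near the background, and replicate 2 peaks are wider throughout, with a median of 500 bp against 350 bp in the other lists. Replicate 2 has the longest list, with many low-scored peaks, so an equal percentile is a different rank in it. The 4 regions with all 3 replicates had replicate 2 percentiles with a median of 92.8, against 91.3 for all such peaks of that list. The 6 with exactly 2 replicates had a median of 75.9, against 73.9, and the 23 unshared peaks 37.9, against 38.8. The windows followed the lists in this order of scores, with the shared peaks higher. In replicate 3 the medians were 76.4 for all 3 and 11.1 for exactly 2 replicates, with 4 peaks each. Over its list they were 66.0 and 31.5. In replicate 1 the window medians were 67.6 (4 peaks) and 38.9 (2 peaks), against 60.1 and 26.6 over its list. For exactly 2 replicates the windows thus lay below the list in replicate 3 and above it in replicate 1, on very few peaks.

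The regions matched the authors' deposited table of intervals covered by at least 2 replicates. That table describes the same 3 replicates, so the match checks the merging and the names and is no separate support. In the 5 windows that table has 18 intervals, they fall in 4 of the 5 windows, and each of the 10 shared regions contains at least 1. The replicate names in it matched the lists for 12 of the 18 intervals as written and for 18 of 18 with the names of replicates 2 and 3 exchanged. Numbering of replicates is by the titles of the samples. Peak numbers rise with position in the lists and have gaps, and 39.1%, 19.7% and 38.8% of the numbers up to the highest are absent from the lists of replicates 1, 2 and 3. Between listed peaks of a window, the absent numbers were 1 for Ppard in replicate 1, 3 for Ppard, 1 for Nr1h3 and 2 for Nr3c1 in replicate 2, and 1 for Pparg in replicate 3. What those entries were was not tested, and a window without a listed peak is not shown to be unbound.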

How the data were processed

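HA-NUR77 was profiled by ChIP-seq in 3 replicates of 1 group. For each, the authors deposited a list of peaks with a position and a score, with mm9 coordinates according to the submitters' processing notes. Peaks are named as MACS names them. Not given in the sources used here are the scale of the score, the caller's version and threshold, the aligner and how the re-used input reads entered. The sequencing depth is unknown. The authors also deposited a table of intervals covered by at least 2 replicates, with names in place of values (other data).

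Peaks were assigned to a window by their centre, and peaks of the 3 lists that overlapped by at least 1 bp were merged into regions. Densities used 2655 Mb of nuclear mm9 chromosomes (GenomeInfoDb 1.38.1). A percentile is the mid-rank of a score in its own list. Tiles of each window's width were laid end to end over all nuclear chromosomes, gene-poor sequence included, so tile shares do not compare a window with other gene loci. No test between conditions is possible with 1 group, and the 95% Wilson and exact Poisson intervals cover counting error only. The labels give 6 dishes for each replicate, and preparation days are not named.

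Every region with all 3 replicates was named, with the best-ranked region of exactly 2 replicates and the best peak of a single replicate in each window. The 2 remaining shared regions and the weaker Rxra peak were named after their values were seen. The members, windows and lists were chosen with earlier results of these data known. Alternatives were a reciprocal overlap of 50%, centres within 100 bp, any overlap with the window, the higher-scored 50% of each list, lists of 6777 peaks each, windows widened by 50 kb, ranks and densities within the chromosome, and leaving out each replicate. A planned list of other receptor and cofactor genes was not run, as it needs an mm9 annotation. The tools were scipy 1.17.1, pandas 2.3.3, numpy 2.4.6, matplotlib 3.10.9 and Python 3.11.15, and the merging code recovered 100% of 3000 simulated regions.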

Additional observations from a re-analysis of the deposited data

How the results depend on the processing

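The relative density of shared regions stayed above 1 under each alternative, from 2.19 without replicate 2 to 3.14 with lists of equal length. Without the Pparg window it was 1.81, on 5 shared regions. No counting interval was computed for that value, so whether it differs from 1 was not determined. The number of shared regions in the 5 windows fell from 10 to 5 with the higher-scored 50% of each list and to 5 without the Pparg window, by construction, and leaving out each replicate gave 4 to 8, with 4 without replicate 2 and 6 without replicate 3. Regions of all 3 replicates numbered 4 under the other ways of sharing and list lengths, 7 with windows widened by 50 kb and 1 without the Pparg window. For single windows, the reciprocal overlap of 50% left 1 region each at Ppard and Nr3c1, and centres within 100 bp left 1 at Nr3c1. The higher-scored 50% of each list left 3 at Pparg, 1 at Ppard, 0 at Nr1h3 and 1 at Nr3c1. Lists of equal length left 0 at Nr1h3 and 1 at Nr3c1, and the widened windows gave 2 at Nr1h3. Leaving out each replicate gave 3 to 5 at Pparg, 1 to 2 at Ppard, 0 to 1 at Nr1h3 and 0 to 1 at Nr3c1. Without replicate 2, 3 were left at Pparg, 1 at Ppard and 0 at Nr1h3 and Nr3c1. Without replicate 3, 3 were left at Pparg, 2 at Ppard, 0 at Nr1h3 and 1 at Nr3c1. Without replicate 1, 1 each was left at Ppard and Nr3c1. Rxra had 0 under each of these. Ranking within the chromosome moved the mean percentile of a shared region by at most 4.90 points, less than its SD between replicates for 10 of 10. No paired analysis was possible because all samples form 1 group. The depth is unknown, so a missing peak does not show missing binding.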
